A study of Papio hamadryas with 160 samples.

Results

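The miR-378 family is a small group of closely related microRNAs, of which 4 were measured here: hsa-miR-378a-3p, hsa-miR-378c, hsa-miR-378d and hsa-miR-378i. They were selected by name, as all rows of the deposited table that begin with hsa-miR-378, and make up 4 of its 362 miRNAs. The table holds only miRNAs with at least 10 reads in at least 80% of the brain libraries, so the presence of a member in it rests on its brain read counts. miR-378a-3p and miR-378c reached 10 reads in all 66 brain libraries, miR-378i in 60 and miR-378d in 59, and the miRNAs nearest to the limit, such as miR-1179 and miR-1251-5p, in 80.3% of them. Other family members in miRBase were not analysed here.

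MicroRNAs are short RNAs that pair with messenger RNAs through a seed near their 5′ end and lower their translation or stability. The gene of miR-378a lies in an intron of PPARGC1B, which encodes the metabolic coactivator PGC-1β. In mice miR-378 lowers carnitine O-acetyltransferase and the Mediator subunit MED13, and mice without it resist obesity on a high-fat diet. miR-378c, miR-378d and miR-378i are paralogues read from other loci and resemble miR-378a-3p closely in sequence.

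Small RNA was sequenced in 76 libraries from 10 baboons (Papio hamadryas), with peripheral blood mononuclear cells (PBMC) and brain regions taken from the same animals to ask how far blood reflects brain. Group A comprised 4 adult females euthanised with pentobarbital, and Group B comprised 5 males and 1 younger female, exsanguinated under general anaesthesia after serving as controls in another study. Group A gave 4 PBMC and 27 brain libraries from the amygdala (AMG), paraventricular nuclei of the hypothalamus (PVN), dorsomedial prefrontal cortex (dmPFC), dorsal anterior cingulate (dACC), lateral and medial orbitofrontal cortex (lOFC, mOFC) and posterior cingulate (PCC). From Group B came 6 PBMC libraries and 39 of brain, taken from the hippocampus (HC), cerebellum (CB), dorsolateral prefrontal cortex (dlPFC), motor cortex (MC), entorhinal cortex (EC), posterior parietal cortex (PPC) and occipital cortex (OC). The table's header names the hippocampal column dentate gyrus. No region was sampled in both groups, so region, sex, age and euthanasia cannot be told apart between them. The groups were analysed separately, except where a comparison between them or a description over both is named.

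Levels are in RPM, the reads of a miRNA scaled to all mapped miRNA reads of its library. The PBMC libraries held 1584752 to 4899895 mapped reads in Group A and 707975 to 1208337 in Group B, against 1425625 to 7036389 in the brain libraries of both groups. The 7 leukocyte miRNAs, such as miR-142-5p and miR-150-5p, summed to between 65760 and 150930 RPM in PBMC and to between 958 and 1805 RPM in brain, and the 8 neuronal miRNAs, such as miR-9-5p and miR-128-3p, to between 587 and 1056 RPM in PBMC and to between 35349 and 73717 RPM in brain. Some libraries stood apart from their labels. The library labelled AMG of animal A3 correlated more closely with the mOFC of the other animals (r = 0.995 over the 362 miRNAs) than with their AMG (r = 0.980), and the library labelled mOFC of A3 the other way round (r = 0.982 with mOFC and 0.991 with AMG). The OC and EC libraries of B2 carry the same index in their labels. Where leaving these libraries out changed the call of a member, both values are given.

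miR-378a-3p supplied most of the family. Over all libraries it had 185967 reads, or 93.0% of the family total, and ranked 78 among the 362 miRNAs. miR-378c had 9023 reads (4.51%, rank 249), miR-378d 2752 (1.38%, rank 334) and miR-378i 2245 (1.12%, rank 346). The family sum lay between 1463 and 2671 RPM in the PBMC of Group A and between 620 and 1418 RPM in its brain libraries. In Group B it lay between 1443 and 2815 RPM in PBMC and between 438 and 1098 RPM in brain. How reads that match several family members were assigned is not given in the sources used here. For another near-identical pair, miR-151a-5p and miR-151b, the 2 levels came within 99.4% to 100% of each other in all 76 libraries, as they would if shared reads were counted in both, so the split among the family members is uncertain.

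**Figure D1:**
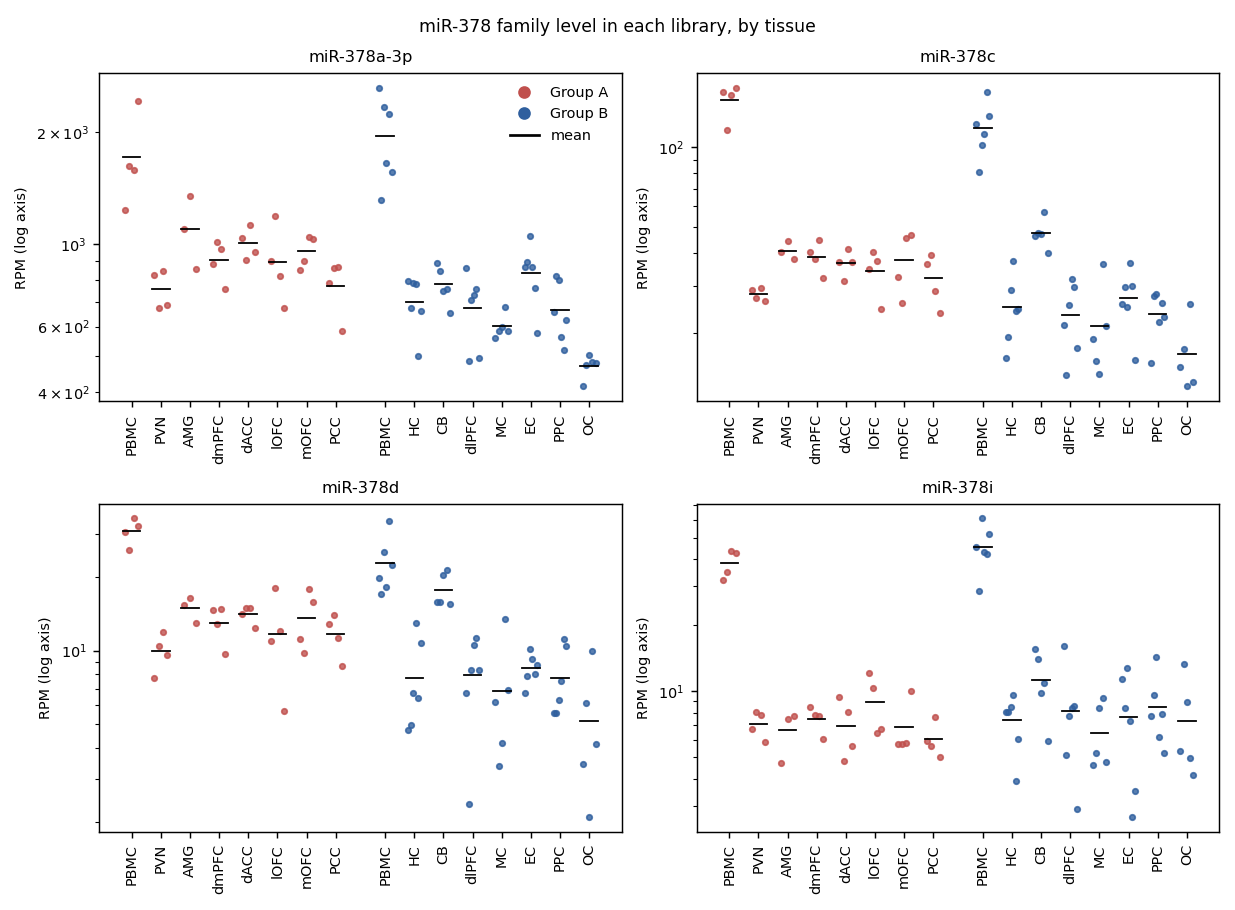
RPM (log axis) of each member in every library, by tissue, with Group A in red, Group B in blue and the mean of each tissue as a bar. PBMC had the highest mean of each member in both groups, and within Group B the cerebellum lay closest to PBMC for miR-378c and miR-378d.

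All members were higher in PBMC than in the brain of the same animals, in both groups. miR-378a-3p measured 1238, 1624, 1582 and 2429 RPM in the PBMC of A1 to A4, and between 582 and 1350 RPM in the 27 brain libraries (median 883). Only the AMG of A2, the highest brain library, exceeded the lowest PBMC library. In Group B its PBMC level was lowest at 1316 RPM, with a median of 1945 and a highest value of 2627 RPM, and its 39 brain libraries lay between 414 and 1050 RPM (median 673). The 2 tissues did not overlap there. Per animal the mean in PBMC was 1718 ± 504.4 RPM against 903 ± 88 in brain (SD, n = 4), and 1954 ± 517 against 677 ± 58 in Group B (SD, n = 6).

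miR-378c measured 162, 116, 157 and 167 RPM in the PBMC of A1 to A4. Its brain libraries in Group A lay between 23.8 and 46.8 RPM (median 37.0), below every PBMC library. In Group B its PBMC level ran from 81.0 RPM over a median of 118 to 162 RPM. The brain libraries lay between 12.6 and 56.9 RPM (median 24.97), and the highest of them was the cerebellum of B5. PBMC and brain did not overlap in either group.

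miR-378d and miR-378i were both near the detection limit in brain, with as few as 4 and 6 reads in a library. miR-378d measured 30.4, 25.9, 34.7 and 32.2 RPM in the PBMC of A1 to A4 and between 5.65 and 18.02 RPM in brain (median 12.8). In Group B it ran from 17.1 to 34.0 RPM in PBMC (median 21.1) and from 2.10 to 21.3 RPM in brain (median 7.86). There 2 brain libraries, both from the cerebellum, reached the lowest PBMC library. miR-378i measured 32.0, 34.7, 43.5 and 42.4 RPM in the PBMC of A1 to A4 and between 4.70 and 12.1 RPM in brain (median 6.74). In Group B it lay between 28.5 and 61.1 RPM in PBMC (median 44.1) and between 2.69 and 16.1 RPM in brain (median 8.07). For miR-378i the tissues did not overlap in either group.

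Differences were tested with limma on log2(RPM + 1), with a term for each animal, and p-values were adjusted over all 362 miRNAs (Benjamini-Hochberg, threshold 0.05). In Group A the PBMC level exceeded the brain mean by 0.91 ± 0.23 (SE) on the log2 scale for miR-378a-3p (1.88-fold, adjusted p = 0.00878). The difference was 2.08 ± 0.17 for miR-378c (4.23-fold, adjusted p = 3.50e-05), 1.26 ± 0.17 for miR-378d (2.40-fold, adjusted p = 0.000426) and 2.28 ± 0.16 for miR-378i (4.87-fold, adjusted p = 1.79e-05). Each member was higher in 4 of 4 animals. In Group B the differences were 1.52 ± 0.14 (2.87-fold, adjusted p = 2.14e-05) for miR-378a-3p, 2.21 ± 0.14 (4.61-fold, adjusted p = 1.67e-06) for miR-378c, 1.40 ± 0.17 (2.63-fold, adjusted p = 0.000103) for miR-378d and 2.43 ± 0.19 (5.39-fold, adjusted p = 6.39e-06) for miR-378i. Each was higher in 6 of 6 animals.

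All 4 members thus passed as higher in PBMC in each group, where 89% of all miRNAs passed in Group A and 91.7% in Group B in either direction, and 28.5% and 31.8% passed as higher in PBMC. The median miRNA fell by 1.53 on the log2 scale in Group A and by 1.32 in Group B, while each member rose. All miRNAs of this background, the members among them, were kept for their reads in brain, with no requirement in PBMC. The background is therefore not a neutral one for blood against brain. After quantile normalization, which moved that median to -0.03 and 0.07, the numbers of miRNAs higher and lower were 154 and 156 in Group A, against 103 and 219, and 161 and 151 in Group B, against 115 and 217. All 4 members kept their direction and passed under that scaling as well. The leukocyte list was higher in PBMC in 7 of 7 miRNAs in each group, and its sum in brain was 0.785% to 2.12% of the same animal's PBMC in Group A and 0.679% to 1.44% in Group B. For the erythroid list that share was 2.06% to 29.5% in Group A and 3.34% to 61.0% in Group B. Of its 4 miRNAs 1 was called higher in PBMC in each group, and 0 and 3 were called lower in Groups A and B. Fewer cells of a type and less RNA per cell cannot be told apart in such bulk libraries. PBMC and brain were also frozen and homogenised differently, and the part of that handling in the difference cannot be told apart from tissue.

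**Figure D2:**
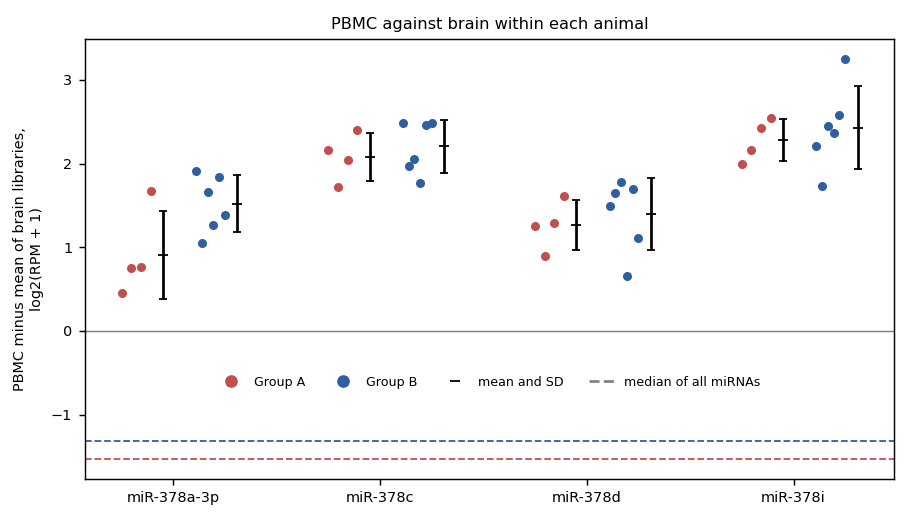
PBMC minus the mean of the brain libraries of the same animal, in log2(RPM + 1), for each member, with 1 point an animal, the mean and SD in black, and the median of all 362 miRNAs as a dashed line for each group. Every point lies above 0, while the median miRNA lies at -1.53 in Group A and -1.32 in Group B.

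Whether the excess in PBMC was equal within the family was examined as the ratio of each lesser member to miR-378a-3p in the same library. This ratio does not depend on the scaling. miR-378c amounted to 13.1%, 7.15%, 9.95% and 6.89% of miR-378a-3p in the PBMC of A1 to A4, and to between 2.88% and 4.64% in the brain libraries of Group A. In Group B it amounted to between 4.40% and 8.44% in PBMC (median 6.50%), and to between 2.04% and 5.36% in the brain libraries outside the cerebellum (median 3.58%). The groups of libraries did not overlap in Group A and overlapped in Group B. miR-378i amounted to between 1.74% and 2.75% in the PBMC of Group A and to between 0.428% and 1.34% in its brain libraries. In Group B it amounted to between 1.72% and 3.35% in PBMC and to between 0.354% and 2.81% in brain outside the cerebellum. The highest of these was the OC library of B2, followed by the dorsolateral prefrontal cortex of B1 at 1.86%.

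The ratio of miR-378c to miR-378a-3p was 2.30-fold higher in PBMC than in brain in Group A (mean log2 difference 1.20 ± 0.42, SD, n = 4) and 1.66-fold higher in Group B (0.73 ± 0.28, SD, n = 6). That of miR-378i was 2.90-fold higher in Group A (1.53 ± 0.33, SD, n = 4) and 2.11-fold higher in Group B (1.08 ± 0.58, SD, n = 6). Both ratios were higher in 4 of 4 and in 6 of 6 animals. An exact two-sided sign-flip permutation test gave p = 0.125 in Group A and p = 0.03125 in Group B for each, the smallest values that 4 and 6 animals allow. Adjusted over the 6 ratios tested, the exact p became 0.15 and 0.09375, and neither passed. With those smallest values no ratio could have passed 0.05 after adjustment, so the adjusted values cannot decide the question. The ratio of miR-378d differed by 0.42 ± 0.38 (SD, n = 4; exact permutation p = 0.125) in Group A and by 0.01 ± 0.49 (SD, n = 6; exact permutation p = 0.938) in Group B, where it was higher in 2 of 6 animals. In Group B the direction for miR-378d turned with the way the ratio was formed, to -0.12 with 1 RPM added and to -0.09 with brain libraries summed, and to -0.15 without B2 and -0.05 without B3.

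**Figure D3:**
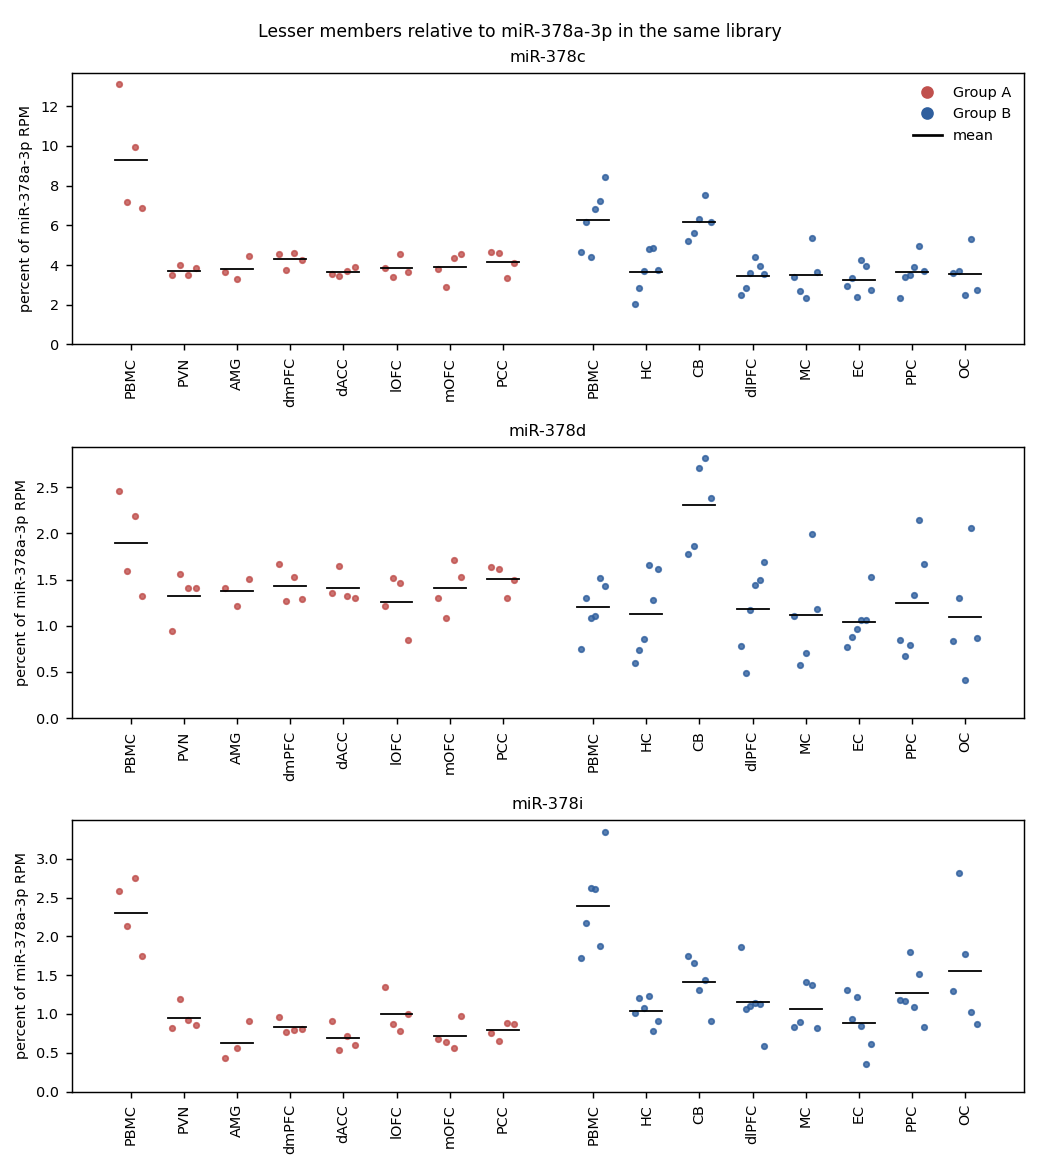
Level of miR-378c, miR-378d and miR-378i as a percentage of miR-378a-3p in the same library, by tissue, with Group A in red, Group B in blue and the mean as a bar. miR-378c and miR-378i have their highest mean ratios in PBMC in each group, while miR-378d in Group B has its highest ratio in the cerebellum.

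In the cerebellum miR-378c and miR-378d were higher than anywhere else in the brain of Group B. miR-378c measured 46.3, 47.6, 47.3, 56.9 and 40.1 RPM in the cerebellum of B1, B3, B4, B5 and B6, above every other brain library of Group B, the highest of which was the hippocampus of B4 at 37.4 RPM. miR-378d measured 15.8, 15.8, 20.3, 21.3 and 15.6 RPM in the same libraries, again above all others in Group B, the highest of which was the motor cortex of B5 at 13.5 RPM. miR-378i measured 15.5, 14.1, 9.81, 10.9 and 5.91 RPM, and overlapped with the other regions. miR-378a-3p measured 892, 845, 749, 756 and 651 RPM, and lay within the range of the entorhinal cortex.

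Against the mean of the other brain regions of the same 5 animals, the cerebellum was higher by 1.03 ± 0.10 (SE) on the log2 scale for miR-378c (2.04-fold, adjusted p = 3.30e-05) and by 1.13 ± 0.11 for miR-378d (2.18-fold, adjusted p = 2.55e-05). The difference was 0.59 ± 0.10 for miR-378i (1.50-fold, adjusted p = 0.000838) and 0.26 ± 0.08 for miR-378a-3p (1.19-fold, adjusted p = 0.0142). All 4 passed and were higher in 5 of 5 animals, where 83.7% of all miRNAs passed in either direction and 24% passed as higher in the cerebellum. Ordered from the most raised to the most lowered in the cerebellum, miR-378d and miR-378c stood 15th and 18th of 362. The call for miR-378a-3p was lost without B1 (0.22, adjusted p = 0.0509) and without B5 (0.24, adjusted p = 0.0516).

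The median miRNA fell by 0.49 on the log2 scale in the cerebellum, and under median-of-ratios scaling by 0.16, with 120 miRNAs higher and 165 lower against 87 and 216 with the authors' scaling. Quantile normalization gave 157 higher and 135 lower. The members were higher in the cerebellum under each scaling tried. Other lists moved in the cerebellum too. The sum of the 4 erythroid miRNAs lay between 3541 and 5360 RPM there against 662 to 2646 RPM in the other regions of Group B, but only miR-486-5p was called higher (1.98, adjusted p = 3.18e-06), and the other 3, miR-451a among them (-0.50, adjusted p = 0.00589), were called lower. The oligodendrocyte sum lay between 2927 and 3652 RPM against 3790 to 12893 RPM, and the endothelial and smooth muscle sum between 11367 and 15431 RPM against 16241 to 47842 RPM, with 4 of 4 miRNAs of each list called lower. Of the 7 leukocyte miRNAs 6 were called lower and 1 higher, and their sum lay between 1047 and 1115 RPM against 1017 to 1805 RPM. The cerebellar libraries were also deeper, at 3214212 to 7036389 reads. The part of these lists and of depth in the result was not tested.

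The ratio to miR-378a-3p differed in the cerebellum as well. miR-378c amounted to 5.19%, 5.63%, 6.32%, 7.53% and 6.16% of miR-378a-3p in the cerebellum of B1, B3, B4, B5 and B6, a level within the range of PBMC. It was 1.40 to 1.87 times the mean of the other brain regions of the same animal. miR-378d amounted to between 1.77% and 2.82%, which was 1.55 to 2.28 times that mean. Both exceeded every other brain library of the same animal in 5 of 5 animals, and miR-378i in 1 of 5. In PBMC of Group B miR-378d amounted to between 0.753% and 1.51% of miR-378a-3p, below its ratio in every cerebellar library.

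The occipital cortex had the lowest mean level of miR-378a-3p among the Group B regions. It measured 414, 473, 504.4, 483 and 479 RPM in B1 to B5, with a mean of 471 ± 34 against 732 ± 56 RPM in the other regions of the same animals (SD, n = 5). miR-378c measured 15.0, 17.4, 12.6, 25.6 and 13.1 RPM in the same libraries. The occipital libraries overlapped with other regions for both, for miR-378a-3p only with the dorsolateral prefrontal cortex of B2 and B6 and the hippocampus of B5. The level in the occipital cortex was lower by 0.61 ± 0.09 (SE) on the log2 scale for miR-378a-3p (difference -0.61, adjusted p = 0.000983) and by 0.69 ± 0.16 for miR-378c (difference -0.69, adjusted p = 0.00861), in 5 of 5 animals each. miR-378d differed by -0.69 ± 0.26 (adjusted p = 0.0583) and miR-378i by -0.27 ± 0.22 (adjusted p = 0.336), and neither passed.

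With 2 of 4 members called, the background was 48.9% of all miRNAs in either direction and 38.4% as lower in the occipital cortex, so the share of members was near the background. B2 decided the calls for the rarer members: without it miR-378d differed by -0.95 (adjusted p = 0.0110) and miR-378i by -0.54 (adjusted p = 0.00795), and all 4 passed. Leaving out only the OC and EC libraries of B2 is the same comparison, since B2 then has no OC library. In the OC library of B2 miR-378i measured 13.3 RPM, against 4.17 to 8.92 RPM in the other 4. The median miRNA differed by -0.20 there. Median-of-ratios scaling moved this to 0.01, with 76 miRNAs higher and 63 lower against 38 and 139. Under quantile normalization miR-378c missed the threshold (-0.40, adjusted p = 0.0737) and miR-378i turned to 0.16.

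**Figure D4:**
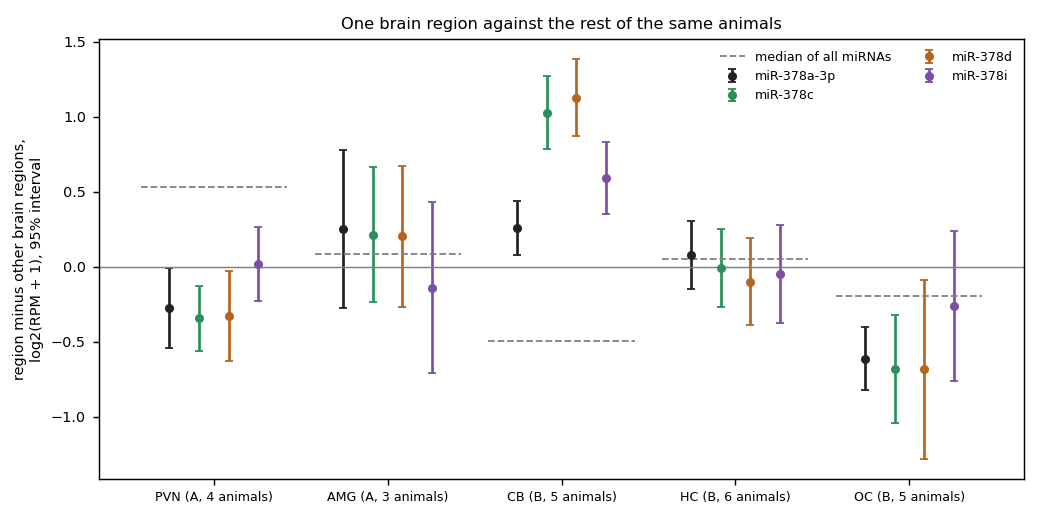
Difference between 1 brain region and the other brain regions of the same animals, in log2(RPM + 1) with its 95% interval, for each member, and the median of all 362 miRNAs as a dashed line. miR-378c and miR-378d lie at 1.03 and 1.13 in the cerebellum, and miR-378a-3p at -0.61 in the occipital cortex.

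The paraventricular nuclei had the lowest mean of miR-378a-3p, miR-378c and miR-378d among the Group A regions. miR-378c measured 29.0, 27.0, 29.5 and 26.5 RPM in the PVN of A1 to A4, with a mean of 28.0 ± 1.46 against 36.4 ± 2.67 RPM in the other regions (SD, n = 4). It differed by -0.35 ± 0.09 (SE, adjusted p = 0.0109), and was lower in 4 of 4 animals. miR-378a-3p measured 824, 674, 848 and 685 RPM, overlapping with other regions, and differed by -0.27 ± 0.11 (adjusted p = 0.0614). miR-378d differed by -0.33 ± 0.13 (adjusted p = 0.0491). miR-378i differed by 0.02 ± 0.10 (adjusted p = 0.870), with a 95% interval from -0.23 to 0.27.

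With 2 of 4 members called, both as lower, 72.1% of all miRNAs passed in either direction. Of all 362 miRNAs, 224 passed as higher in the PVN and 37 as lower. The call for miR-378d was lost without A1 (-0.21, adjusted p = 0.185), without A2 (-0.31, adjusted p = 0.119), without A3 (-0.37, adjusted p = 0.0832) and without the libraries labelled AMG and mOFC of A3 (-0.31, adjusted p = 0.0715). With a pseudocount of 10 RPM the count stayed 2, but the call for miR-378d was lost (-0.20, adjusted p = 0.0953) and miR-378a-3p was called (-0.27, adjusted p = 0.0479). The median miRNA was higher by 0.53 in the PVN, so that the members lay further below it than below 0. Median-of-ratios scaling brought that median to 0.05, with 135 miRNAs higher and 108 lower against 224 and 37. All 4 members then passed as lower, miR-378a-3p by 0.76 (difference -0.76, adjusted p = 0.000705), and miR-378i reversed its sign to -0.40 (adjusted p = 0.0118). The erythroid sum was higher in the PVN, between 2039 and 3118 RPM against 838 to 1677 RPM elsewhere, with 3 of 4 miRNAs called higher. The leukocyte sum lay between 1394 and 1739 RPM against 958 to 1512 RPM, with 5 of 7 miRNAs called higher and 0 lower. Of the 4 muscle miRNAs 3 were called lower and 1 higher. The neuronal sum was lower, between 35349 and 46254 RPM against 47498 to 71127 RPM, with 4 of 8 miRNAs called lower and 2 higher. The part of these lists in the result was not tested.

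In the amygdala no member passed. miR-378a-3p measured 1098, 1350 and 855 RPM in A1 to A3, and differed from the other regions by 0.25, with a 95% interval from -0.28 to 0.78 (n = 3 animals, limma adjusted p = 0.656). For miR-378c the interval ran from -0.24 to 0.66, for miR-378d from -0.27 to 0.67 and for miR-378i from -0.71 to 0.43. limma called 0 of 4 members and 0% of the 362 miRNAs, with 0 members and 22 miRNAs at an unadjusted p under 0.05. edgeR called 0 members and 0 miRNAs, and DESeq2 0 members and 7 miRNAs. Without the libraries labelled AMG and mOFC of A3 the difference of miR-378a-3p was 0.44 (adjusted p = 0.209), from 2 animals. limma then still called 0 members, but 59 of the 362 miRNAs, 52 higher and 7 lower in the amygdala. Leaving out all of A3 is the same comparison, since A3 then has no AMG library. The count of 0 miRNAs thus rests on A3, and its labels and the animal itself cannot be told apart there.

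In the hippocampus miR-378a-3p ran from 499 to 795 RPM and differed by 0.08 (adjusted p = 0.589), with a 95% interval from -0.15 to 0.30. The intervals were -0.27 to 0.25 for miR-378c, -0.39 to 0.19 for miR-378d and -0.37 to 0.28 for miR-378i. limma called 0 of 4 members, with 0 at an unadjusted p under 0.05, where 28.2% of all miRNAs passed. edgeR and DESeq2 called 0 members as well, with 2 and 1 at an unadjusted p under 0.05. The numbers of miRNAs higher and lower in the hippocampus were 71 and 31, and 58 and 58 under quantile normalization.

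limma's moderated F test asked whether a member differed anywhere among the 7 regions of a group. In Group B miR-378a-3p (adjusted p = 3.62e-05), miR-378c (adjusted p = 8.56e-06) and miR-378d (adjusted p = 7.97e-05) differed among regions, with 0.85, 1.51 and 1.60 between the highest and the lowest region on the log2 scale. miR-378i did not pass with limma (0.76, adjusted p = 0.167), where 91.7% of all miRNAs passed. It passed with median-of-ratios scaling (1.06, adjusted p = 0.00677), with quantile normalization (1.69, adjusted p = 3.53e-06), and with edgeR and DESeq2, each of which called 4 of 4 members. In Group A no member passed with limma, with 0 at an unadjusted p under 0.05, where 69.1% of all miRNAs passed. The lowest adjusted p there was 0.0784 for miR-378a-3p (0.46 between the highest and the lowest region). edgeR and DESeq2 each called 3 of the 4 in Group A, all but miR-378i. Without the libraries labelled AMG and mOFC of A3, miR-378a-3p passed (0.65, adjusted p = 0.0252). Whether the regional spread differs between the groups was not tested.

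In the order of tissue means most neighbours did not differ beyond their spread. For each member PBMC came first in each group. For miR-378a-3p the Group A order continued with AMG (1101 RPM), dACC (1005), mOFC (959), dmPFC (905), lOFC (897), PCC (774) and PVN (758). Of its 7 neighbouring pairs, only PBMC and AMG differed by more than the SD of the difference within animals. In Group B it continued with EC (837 RPM), CB (779), HC (699), dlPFC (672), PPC (664), MC (600) and OC (471). Here PBMC and EC, and MC and OC, differed beyond that SD. For miR-378c and miR-378d in Group B the pairs that did were PBMC and CB, and CB and EC, with CB above EC by 0.86 ± 0.33 and 0.97 ± 0.29 on the log2 scale (SD, n = 5). For miR-378i they were PBMC and CB, and CB and PPC. In Group A the only such pair was PBMC and the highest brain region for each member.

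Whether an animal with a high blood level also had a high brain level was examined over the 6 animals of Group B. For miR-378a-3p the PBMC level of B1 to B6 was 2627, 1316, 2333, 1648, 2241 and 1558 RPM. Its Pearson r with the mean brain level was 0.58 (exact permutation p = 0.208, adjusted p = 0.787) and its Spearman rho 0.66 (exact permutation p = 0.175, adjusted p = 0.915), with r = 0.52 without B1 and B2, the animals farthest from the median in PBMC. For miR-378c r was 0.48 (exact permutation p = 0.344, adjusted p = 0.846) and rho 0.37 (exact permutation p = 0.497, adjusted p = 0.969). Without B2 and B5 its r turned to -0.46, so that the value rests on those animals. For miR-378d r was 0.40 (exact permutation p = 0.453, adjusted p = 0.872) and rho 0.37 (exact permutation p = 0.497, adjusted p = 0.969), with r = 0.39 without B3 and B5. For miR-378i r was 0.17 (exact permutation p = 0.781, adjusted p = 0.977) and rho 0.26 (exact permutation p = 0.658, adjusted p = 0.969), and r was -0.59 without B2 and B3.

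The brain means cover unlike sets of regions, since B2 had no cerebellum, B4 no motor cortex and B6 no occipital cortex. Over the 4 regions present in every animal, HC, dlPFC, EC and PPC, r was 0.49 for miR-378a-3p, 0.060 for miR-378c, 0.40 for miR-378d and 0.22 for miR-378i, and none passed. No member was called, and among 340 miRNAs that had PBMC reads 0% passed after adjustment and 25 had an unadjusted exact p under 0.05, with a median r of 0.18. With 6 animals the smallest exact p is too large for a lone miRNA to pass adjustment over 340. The absence of calls therefore cannot show that correlation is absent. No correlation was computed over the 4 animals of Group A. There the highest PBMC level of miR-378a-3p, 2429 RPM in A4, went with the lowest mean brain level of that group. A4 had no amygdala library, however, and the amygdala had the highest brain mean of miR-378a-3p in Group A.

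**Figure D5:**
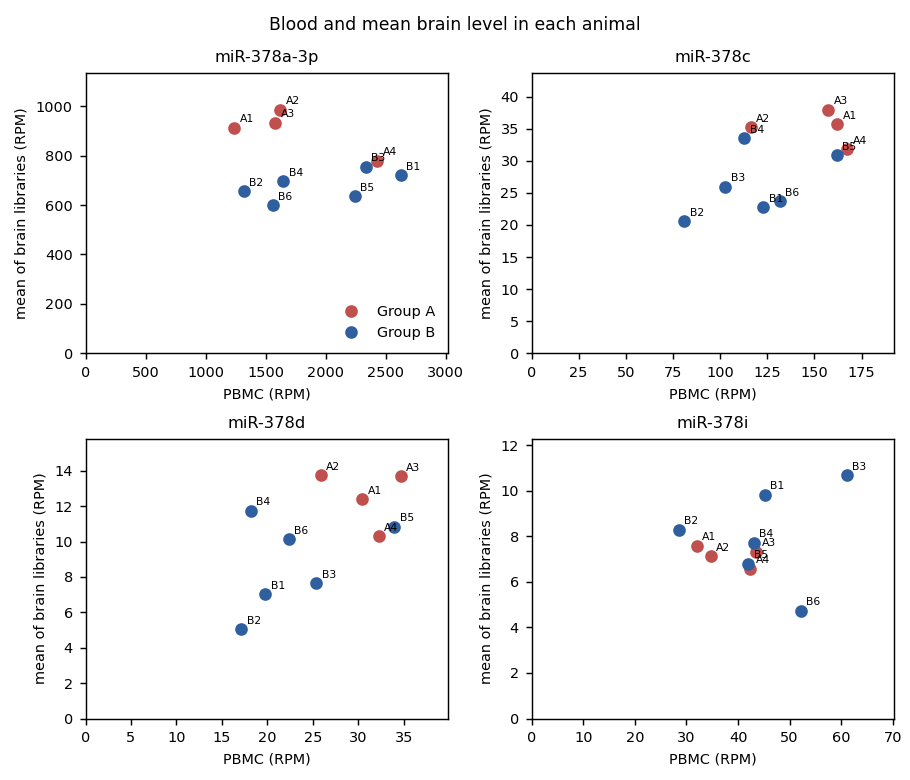
Mean brain RPM (vertical axis) against PBMC RPM (horizontal axis) of each member, with 1 point an animal, Group A in red and Group B in blue. In Group B miR-378a-3p has r = 0.58 and miR-378i r = 0.17, and neither passed the exact permutation test.

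The blood-brain difference was then compared between the groups over the 10 animals. The brain mean covers different regions in each group, and region, sex, age and euthanasia cannot be told apart in this comparison. For miR-378a-3p it was larger in Group B by 0.61 ± 0.27 (SE) on the log2 scale, with a 95% interval from 0.02 to 1.20 (adjusted p = 0.158). It was larger by 0.13 ± 0.21 for miR-378c (interval -0.34 to 0.59), 0.13 ± 0.25 for miR-378d (-0.42 to 0.69) and 0.15 ± 0.27 for miR-378i (-0.44 to 0.74). limma called 0 members, with 1 at an unadjusted p under 0.05, and 11.9% of all miRNAs. Without A4 the difference of miR-378a-3p was 0.86 (adjusted p = 0.0476) and passed. Over all miRNAs the median change in the signed value, PBMC minus brain, was 0.27 upward in Group B. Most miRNAs were lower in PBMC, so for them a higher signed value can mean a smaller gap. Under median-of-ratios scaling this median was -0.19. The signed value was then called higher in Group B for 19 miRNAs and lower for 33, against 38 and 5. miR-378c, miR-378d and miR-378i turned negative, to -0.36, -0.35 and -0.33.

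The miRNAs whose levels ran most like those of the members were found by Pearson r of log2(RPM + 1), as a description over libraries that share animals and the scaling to one total. Over all 76 libraries the nearest to miR-378a-3p were miR-378c (r = 0.88), miR-425-5p (0.83) and miR-532-5p (0.81). The nearest to miR-378c were miR-378d (0.90), miR-378a-3p (0.88) and miR-425-5p (0.87). Those to miR-378d were miR-378c (0.90), miR-378a-3p (0.77) and miR-340-5p (0.76). miR-378i was nearest to miR-15b-5p (0.87), miR-28-3p (0.87) and miR-10a-5p (0.87), and its r was 0.80 with miR-378c and 0.59 with miR-378d. These values include the step between PBMC and brain.

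Over the 66 brain libraries, as deviations from the mean of each group, miR-378c and miR-378d had r = 0.87, and were each other's nearest. miR-455-5p (r = 0.70) and miR-218-5p (0.68) followed for miR-378c, and miR-33a-5p (0.73) and miR-107 (0.71) for miR-378d. miR-378a-3p was nearest to miR-218-5p (0.65), miR-378c (0.64) and miR-103a-3p (0.62). miR-378i was nearest to miR-378a-3p (0.53), miR-186-5p (0.51) and miR-129-2-3p (0.46), with r = 0.24 to miR-378d, at counts as low as 6 reads in a brain library.

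For 10 other miRNAs with known roles in lipid and energy metabolism the same comparisons were made. In Group A 1 of 10 was called higher in PBMC and 8 lower, against 103 higher and 219 lower of all 362 miRNAs (median difference -1.28, against -1.53 over all). In Group B 1 was called higher and 7 lower, against 115 and 217 of all 362 (median -1.19, against -1.32). The higher one in both groups, named after its values were seen, was miR-27a-3p, by 3.57 and 4.43 on the log2 scale. The most abundant, miR-27b-3p, which restrains adipogenesis, differed by -0.64 and -1.19. miR-103a-3p, read from introns of pantothenate kinase genes, differed by -0.42 (adjusted p = 0.0313) in Group A and by -0.12 (adjusted p = 0.257) in Group B. In the cerebellum 4 of the 10 were called higher and 6 lower (median -0.23), against 87 and 216 of all miRNAs. In the PVN 5 were called higher and 0 lower (median 0.27), against 224 and 37, and in the occipital cortex 1 higher and 5 lower (median -0.26), against 38 and 139. The 4 muscle miRNAs were lower in PBMC in 4 of 4 in each group, with medians of -5.12 and -4.97. Their sum in PBMC was only 3.78 to 11.4 RPM in Group A and 7.45 to 26.5 RPM in Group B. In Group B 2 of them had 0 RPM in every PBMC library. The size of these medians therefore depends on the floor and on the 1 RPM added, and the rows were kept for their brain reads.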

How the data were processed

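The 76 libraries were made with the TruSeq small RNA kit and sequenced on a GAIIx. Per the study's methods, adapters were removed and the authors matched the reads to human miRBase release 21 with mirDeep2 (bowtie, 0 mismatches), left out libraries under 500000 reads (3 empty columns, not used here), combined runs and scaled counts to RPM over the mapped miRNA reads of each library, so that 1 abundant miRNA moves all others. The deposited table holds these RPM values and a total read count per miRNA over all libraries. Whole reads were recovered from the RPM steps (100% of values under 200 RPM within 0.1 of a whole read), and their sums came to 0.999957 to 1 of the deposited totals.

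Differences in level were tested with limma 3.58.1 in R 4.3.3 on log2(RPM + 1) over 362 miRNAs with Benjamini-Hochberg adjustment at 0.05. Each animal's PBMC was set against the log2 mean of its brain libraries, and a region against that of its other brain libraries. The F test took every brain library of a group, with terms for region and animal. Exact permutation tests used numpy 2.4.6 and scipy 1.17.1. Ratios were adjusted over the 6 tested, and correlations, of RPM, over 340 miRNAs. Alternatives were other pseudocounts, a level filter, median-of-ratios and quantile scaling, edgeR 4.0.16 and DESeq2 1.42.0 on recovered reads, no animal term, other regions and each animal left out. Leaving out the OC and EC libraries of B2 was added after seeing the data. The scripts were tested on simulated data. Samples with the same number come from the same animal, as the labels say, so fits were paired by animal. The correlation of the deviations of the paired arms ran from -0.19 to 0.68 for PBMC and brain and from 0.0014 to 0.90 between regions. Named were all rows beginning with hsa-miR-378, the 3 nearest miRNAs of each and up to 2 examples of each list. Members and lists were chosen with earlier results of these data known. A count of 3 reads corresponds to at most 4.24 RPM.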

Additional observations from a re-analysis of the deposited data

Results flagged for a closer look

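Each member was looked at in each tissue with 4 to 6 libraries, 60 sets in all, for a library far from the others by Dixon's criterion, which chance meets in about 1 in 20 sets. It was met once. In the medial orbitofrontal cortex of Group A, miR-378i measured 10.0 RPM (10.02) in A4, against 5.77 to 5.84 RPM in the other 3 animals. The library labelled mOFC of A3 is among those 3.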

How the results depend on the processing

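PBMC against brain kept 4 members of 4 in both groups under every alternative run, from 0.66 (miR-378a-3p, Group A) to 3.97 (miR-378i, Group A) on the log2 scale. The paired fits were repeated with no replicate block: in the PVN the count fell from 2 to 1 and no other count of members changed. The PVN count was 4 with median-of-ratios scaling and with edgeR, 3 with quantile normalization and DESeq2, 1 without the A3 libraries, and 1 to 2 with each animal left out. The amygdala count stayed 0. The cerebellum count was 2 with a mean of at least 10 RPM, since only 2 members passed that filter. The OC count was 1 with quantile normalization, 4 without the OC and EC libraries of B2 (the same comparison as without B2), and 2 to 4 with each animal left out. The Group A F test called 3 with median-of-ratios, quantile normalization, edgeR and DESeq2, and 1 without the A3 libraries. The group difference called 0 to 1 with each animal left out. With each Group B animal left out the ratio difference was 0.65 to 0.79 for miR-378c and 0.87 to 1.21 for miR-378i, where 5 animals allow no exact p under 0.0625, and -0.15 to 0.12 for miR-378d, which was -0.12 with RPM + 1 and -0.090 with summed RPM.

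Signs turned only for differences not called in the fit reported. In the PVN miR-378i was -0.40 (median of ratios), -0.18 (quantile), -0.53 (edgeR) and -0.55 (DESeq2), and -0.049 to 0.068 with each animal left out. In the amygdala miR-378d was -0.0077 (quantile) and miR-378i -0.27 to 0.10 with each animal left out. In the hippocampus miR-378a-3p was -0.013 (edgeR) and -0.023 (DESeq2), miR-378c 0.012 without the B2 libraries, and with each animal left out miR-378c was -0.073 to 0.075, miR-378d -0.17 to 0.0039 and miR-378i -0.14 to 0.070. In the OC miR-378i was 0.16 (quantile). Between groups miR-378c was -0.36 (median of ratios) and -0.02 (quantile), miR-378d -0.040 (10 RPM added), -0.35 and -0.10, miR-378i -0.33 and -0.32, and -0.016 to 0.29 with each animal left out. The correlation of miR-378i was -0.48 to 0.63 with each animal left out. The causes were not tested. Depth limits miR-378d and miR-378i most, with as few as 4 and 6 reads in a brain library. Reads are not independent molecules, so such counts cover counting error only.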
